A study of Mus musculus with 15 samples.

Results

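The genes described here encode the receptors and helper proteins by which the proximal tubule takes up filtered protein: Lrp2, Cubn, Amn, Dab2, Lrpap1, Clcn5, Ocrl and Folr1. They were chosen by symbol, and all 8 were found once each among the 47069 genes of the expression table. The proximal tubule reabsorbs proteins, vitamins bound to carrier proteins and hormones from the filtrate. The giant receptors megalin (Lrp2) and cubilin (Cubn) bind them at the base of the brush border, clathrin-coated pits carry them inside, and acidified endosomes release the cargo to lysosomes while the receptors return to the surface. Loss of single components in people, such as megalin, the chloride/proton exchanger CLCN5 or the lipid phosphatase OCRL, is known for protein loss in the urine.

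The study set RNA from single microdissected proximal tubules, labelled PTS2 for the S2 segment, beside RNA from whole kidney, and asked how genes of single renal cell types are represented in whole-organ data. All 15 libraries came from male C57BL/6 mice aged 2 months, and the labels name no treatment or altered allele in any group. There were 12 PTS2 libraries in sets m1, m2 and m3, each holding libraries numbered 1 to 4, and 3 whole kidney libraries. What a set or a number stands for is not stated in the labels, so p-values over libraries measure the spread between libraries, which may in part be technical. Levels are given as TPM, an abundance of transcripts corrected for gene length and scaled to a common total, which carries no information on sequencing depth.

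Cell markers were summed by segment and cell type to check the tissue labels. Markers of all proximal segments (Slc34a1, Slc27a2, Slc4a4, Aqp1) summed to 11181.3 to 16551.2 TPM in PTS2 and to 9356.02 to 10339.9 TPM in whole kidney. Slc27a2 carried the higher sum, with a mean of 9166 TPM over PTS2 against 4620.1 TPM over whole kidney. The bicarbonate cotransporter gene Slc4a4 was below whole kidney in all 12 PTS2 libraries (means of 95.1 and 224 TPM), while Slc34a1 and Aqp1 overlapped and were not called (limma adjusted p = 0.0788 and 0.852). The S2 markers Slc22a6 and Slc22a8 summed to 368.31 to 1148.81 TPM in PTS2, a range that held the whole kidney range of 718.66 to 781.38 TPM. Of these markers Slc22a8 was below whole kidney in all 12 PTS2 libraries, at means of 68.0 and 272 TPM (log2 difference -2.21, limma adjusted p = 0.000882), and Slc22a6 overlapped. The 3 S3 markers summed higher than whole kidney in every PTS2 library, at 2053.71 to 3771.66 TPM against 987.85 to 1253.54 TPM. Slc7a13 and Slc22a7 were each above whole kidney in all 12 PTS2 libraries. The S3 marker Slc5a1 overlapped, at means of 59.5 and 48.7 TPM, and was not called (limma adjusted p = 0.0914). The 3 S1 markers summed lower, at 36.27 to 79.9 TPM against 817.99 to 892.37 TPM. The labelled S2 segment was thus not set apart by its own 2 markers. Library 3 of m3 stood apart: its 5 thick ascending limb markers summed to 1440.62 TPM, against at most 55.83 TPM in the other PTS2 libraries and 2425.47 to 2723.45 TPM in whole kidney. The differences of the 8 genes from whole kidney, and 3 differences of ratios, are therefore also given without it. Other results are given with it, apart from counts and ranges with each library left out. Podocyte, intercalated cell and distal convoluted tubule markers each summed to at most 3.2 TPM in PTS2. Principal cell, endothelial and fibroblast markers summed to at most 50.45, 32.72 and 4.37 TPM there, against at least 557.24, 117.99 and 54.1 TPM in whole kidney, and 4 of 5 macrophage markers were below whole kidney in all 12 PTS2 libraries.

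The 8 genes spanned a wide range of levels with the same order in both tissues. In PTS2 the mean TPM ran downward in the order Lrpap1, Folr1, Dab2, Amn, Lrp2, Cubn, Clcn5 and Ocrl. Lrpap1 ranked 119 and Ocrl 9420 among the 30134 genes above 0. Each gene was above the next in 12 of 12 PTS2 libraries, except that Amn was above Lrp2 in 11 of 12, and only for that pair did the ranges overlap. In whole kidney only the ranges of Lrpap1 and Folr1 overlapped. The abundance of the chaperone Lrpap1 was 12.2 ± 1.98 times that of Lrp2 in PTS2 (SD, n = 12), and 6.75 ± 0.224 times in whole kidney (SD, n = 3).

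**Figure D1:**
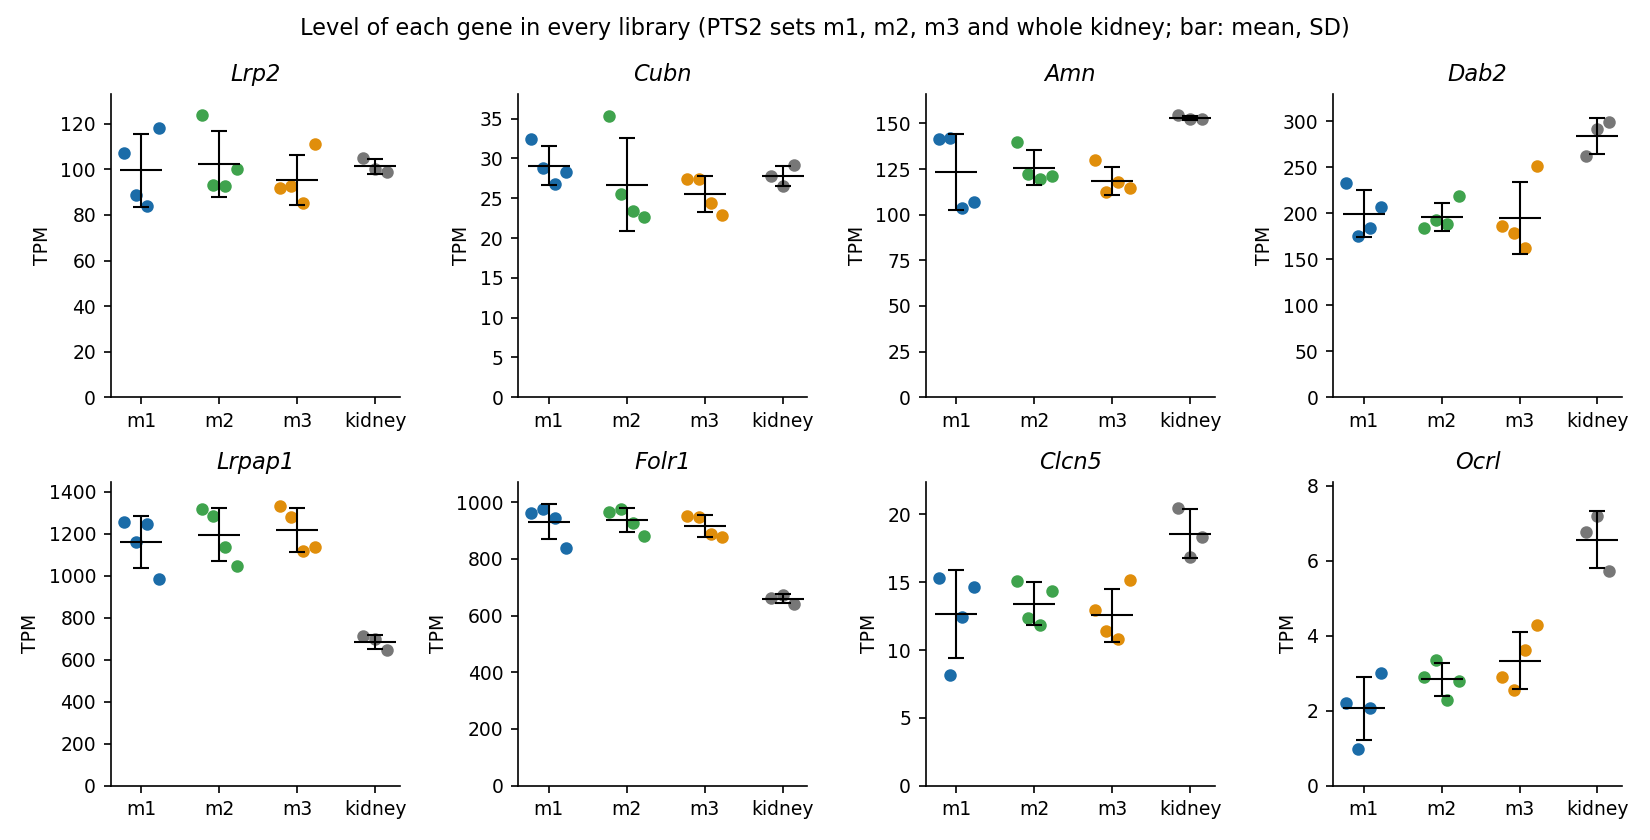
TPM of each of the 8 genes in every library of the PTS2 sets m1, m2 and m3 (4 libraries each, in order of number) and of whole kidney (3 libraries), with each group's mean and SD on axes that start at 0. Lrpap1 and Folr1 lie above whole kidney in all 12 PTS2 libraries, Amn, Dab2, Clcn5 and Ocrl lie below it, and Lrp2 and Cubn overlap it.

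Between PTS2 tubules and whole kidney, the chaperone Lrpap1 and the folate receptor Folr1 were higher in PTS2, the adaptor Dab2, the cubilin partner Amn, and the endosomal genes Clcn5 and Ocrl were lower, and megalin and cubilin themselves were not called in either direction. Thus 6 of 8 genes were called, 2 of 8 higher and 4 of 8 lower (limma on log2(TPM + 1), Benjamini-Hochberg adjusted p under 0.05). Over all 12039 genes tested, 51.2% were called, 9.68% higher and 41.5% lower, so the share of lower genes among the 8 was near the background. The median log2 difference of the 8 genes was -0.19, against -0.27 for all genes. TPM are shares of a total, and this shift of all genes depends on the scaling. Under median-of-ratios rescaling, which sets the typical gene to no difference, 23.5% of all genes were higher and 23.7% lower. Under quantile normalization, which gives every library the same distribution, 34.6% were higher and 18.9% lower. Lrpap1 and Folr1 were called higher under all 3 scalings, and no other gene of the 8 kept its call under all 3. In bulk RNA a lower share of cells of a type and less RNA per cell cannot be told apart.

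Megalin is the large membrane receptor that binds most filtered ligands. Lrp2 (ENSMUSG00000027070, GRCm38 chr2:69424340-69586065, minus strand) has a longest annotated transcript of 15460 bases in 79 exons. Its short cytoplasmic tail carries FXNPXY motifs (phenylalanine, any residue, asparagine, proline, any residue, tyrosine), the signal that endocytic adaptors such as Dab2 recognise. A search of the coding sequence in frame found 2, near its end, and they are shown because an adaptor that reads them, Dab2, is among the 8 genes. Such a motif was present in 0.223% of 21492 coding genes. The capitals mark the codons of the motif in each line.
Lrp2 motif 1: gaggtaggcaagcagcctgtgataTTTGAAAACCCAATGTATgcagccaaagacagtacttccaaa
Lrp2 motif 2: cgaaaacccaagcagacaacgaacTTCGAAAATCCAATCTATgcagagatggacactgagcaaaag
The first starts at codon 4522 of 4660 in exon 76 (chr2:69430281-69430346, minus strand), and the second at codon 4601 across the junction of exons 78 and 79 (chr2:69425786-69426018, minus strand, with the intron between them left out).

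Lrp2 measured 105.15, 100.12 and 98.88 TPM in whole kidney and from 84 to 123.78 TPM in PTS2, with a median of 92.925 TPM. The kidney libraries lay inside the PTS2 range. The means were 99.1 ± 13.0 TPM (SD, n = 12) and 101 ± 3.32 TPM (SD, n = 3). The log2 difference of PTS2 from whole kidney was -0.04 ± 0.11 (SE, limma adjusted p = 0.760), and -0.03 without library 3 of m3. The direction depended on the scaling: it was 0.25 under median-of-ratios rescaling (adjusted p = 0.0492) and 0.04 under quantile normalization (adjusted p = 0.760).

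Cubilin is a peripheral membrane receptor for albumin, intrinsic factor with vitamin B12 and other ligands. Having no membrane anchor of its own, it depends on amnionless for transport to the surface. Cubn (ENSMUSG00000026726, chr2:13276338-13491813, minus strand) measured 27.74, 26.55 and 29.12 TPM in whole kidney and from 22.68 to 35.28 TPM in PTS2, with a median of 27.12 TPM. The highest PTS2 value was library 1 of m2, and the kidney libraries again lay inside the PTS2 range. The means were 27.1 ± 3.82 TPM (SD, n = 12) and 27.8 ± 1.29 TPM (SD, n = 3), and the log2 difference was -0.05 ± 0.12 (SE, limma adjusted p = 0.765). It was -0.03 without library 3 of m3. Its sign also turned with the scaling, to 0.24 under median-of-ratios rescaling (adjusted p = 0.107) and 0.27 under quantile normalization (adjusted p = 0.0545).

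Amnionless is the membrane-spanning partner of cubilin, and its tail carries FXNPXF motifs that serve the same adaptors. Amn (ENSMUSG00000021278, chr12:111271095-111276426, plus strand) held 2 of them in frame, at codons 408 and 445 of 458, a motif present in 0.214% of coding genes. They are shown for comparison with the megalin motifs, with the motif codons in capitals.
Amn motif 1: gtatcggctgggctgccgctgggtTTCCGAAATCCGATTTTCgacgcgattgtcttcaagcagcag
Amn motif 2: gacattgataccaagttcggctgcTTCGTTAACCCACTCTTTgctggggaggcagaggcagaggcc
The first lies in exon 11 (chr12:111275861-111275926, plus strand) and the second in exon 12, the last (chr12:111276061-111276126, plus strand).

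Amn measured 154.4, 152.54 and 152.46 TPM in whole kidney and from 103.44 to 141.86 TPM in PTS2, with a median of 120.4 TPM. All 12 PTS2 libraries were below all 3 kidney libraries, as they were for 32% of all genes tested. The means were 123 ± 13.1 TPM (SD, n = 12) and 153 ± 1.10 TPM (SD, n = 3), 1.25 times higher in whole kidney. The log2 difference was -0.33 ± 0.09 (SE, limma adjusted p = 0.00821), -0.32 without library 3 of m3 (adjusted p = 0.0115). It was -0.04 under median-of-ratios rescaling (adjusted p = 0.780), where the call was lost, and -0.29 under quantile normalization (adjusted p = 0.0103).

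Dab2 is an endocytic adaptor that links the tails of megalin and amnionless to clathrin. Dab2 (ENSMUSG00000022150, chr15:6299788-6440712, plus strand) measured 261.71, 291.49 and 298.98 TPM in whole kidney and from 161.85 to 251.55 TPM in PTS2, with a median of 187.2 TPM. The groups did not overlap, although library 4 of m3, the highest PTS2 library, came close to the lowest kidney library. The mean was 197 ± 25.9 TPM in PTS2 (SD, n = 12) and 284 ± 19.7 TPM in whole kidney (SD, n = 3), 1.45 times higher. PTS2 differed from whole kidney by a log2 value of -0.54 ± 0.11 (SE, limma adjusted p = 0.000718), and -0.51 without library 3 of m3 (adjusted p = 0.000729). Under median-of-ratios rescaling it was -0.25 (adjusted p = 0.0546), and under quantile normalization -0.59 (adjusted p = 0.000171). Macrophages also express Dab2. The 5 macrophage markers summed to 23.65 to 77.18 TPM in PTS2 and 74.01 to 96.98 TPM in whole kidney. Csf1r made up most of the PTS2 sum, at 14.99 to 69.74 TPM against 18.27 to 23.51 TPM, and the other 4 summed to 2.68 to 10.01 TPM in PTS2 against 50.5 to 75.46 TPM. The part of these cells in the Dab2 difference was not tested.

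Lrpap1 encodes the receptor-associated protein, a chaperone of the endoplasmic reticulum that keeps megalin and its relatives from binding ligands too early. It is held there by its last residues, HNEL (histidine, asparagine, glutamate, leucine), whose codons end the coding sequence in 0.0186% of coding genes. The end of its coding sequence is shown with those codons in capitals (codon 357 of 360 is the first, exon 8 of 8, chr5:35093327-35093362, minus strand).
Lrpap1 end: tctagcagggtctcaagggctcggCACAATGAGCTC
Lrpap1 (ENSMUSG00000029103, chr5:35091501-35105766, minus strand) measured 710.31, 698.64 and 645.74 TPM in whole kidney and from 982.97 to 1329.51 TPM in PTS2, with a median of 1202.04 TPM. Every PTS2 library was above every kidney library, as for 5.76% of all genes tested. The means were 1190.1 ± 111 TPM (SD, n = 12) and 685 ± 34.4 TPM (SD, n = 3), 1.74 times higher in PTS2. The log2 difference was 0.79 ± 0.09 (SE, limma adjusted p = 9.96e-07), above that of 97.6% of genes. It was 0.80 without library 3 of m3, 1.08 under median-of-ratios rescaling and 0.64 under quantile normalization (adjusted p = 1.67e-06, 3.41e-08 and 3.74e-06).

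Folr1 encodes a membrane-anchored folate receptor of the proximal brush border, where megalin and this receptor both take part in folate recovery. Folr1 (ENSMUSG00000001827, chr7:101858331-101870788, minus strand) measured 662.86, 671.58 and 641.16 TPM in whole kidney and from 839.28 to 975.4 TPM in PTS2, with a median of 945.67 TPM. Again every PTS2 library was above every kidney library. The means were 928 ± 45.3 TPM (SD, n = 12) and 659 ± 15.7 TPM (SD, n = 3), 1.41 times higher in PTS2. On the log2 scale the difference was 0.49 ± 0.06 (SE, limma adjusted p = 1.46e-06), and 0.50 without library 3 of m3 (adjusted p = 2.5e-06). It was 0.78 under median-of-ratios rescaling and 0.34 under quantile normalization (adjusted p = 1.87e-07 and 7.3e-05). Folr1 was also the steadiest of the 8 genes over the PTS2 libraries, with a coefficient of variation of 4.88%. Only 6.03% of the 282 genes within 2-fold of its level varied less. The gene overlaps Anapc15 on the opposite strand, which averaged 33.5 TPM over PTS2 and 28.1 TPM over whole kidney.

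Clcn5 encodes the chloride/proton exchanger of early endosomes that supports their acidification. Clcn5 (ENSMUSG00000004317, chrX:7153810-7319358, minus strand) measured 20.51, 16.89 and 18.36 TPM in whole kidney and from 8.13 to 15.29 TPM in PTS2, with a median of 12.665 TPM. No PTS2 library reached the lowest kidney library. The means were 12.9 ± 2.18 TPM (SD, n = 12) and 18.6 ± 1.82 TPM (SD, n = 3), 1.44 times higher in whole kidney. On the log2 scale PTS2 was lower by a difference of -0.51 ± 0.15 (SE, limma adjusted p = 0.0104), and -0.49 without library 3 of m3 (adjusted p = 0.0142). The call was lost under median-of-ratios rescaling (-0.24, adjusted p = 0.156), under quantile normalization (-0.07, adjusted p = 0.658) and without whole kidney library 1 (-0.44, adjusted p = 0.0645). Clcn5 is also expressed by intercalated cells, whose 4 markers summed to at most 0.32 TPM in PTS2 and to 127.03 to 143.44 TPM in whole kidney, and their part in the difference was not tested.

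Ocrl encodes an inositol phosphatase of early endosomes that acts on the phosphoinositide PI(4,5)P2. Ocrl (ENSMUSG00000001173, chrX:47912387-47965868, plus strand) was the least abundant of the 8, at 6.76, 7.21 and 5.72 TPM in whole kidney and from 0.97 to 4.28 TPM in PTS2, with a median of 2.84 TPM. All PTS2 libraries were below all kidney libraries. The means were 2.74 ± 0.841 TPM (SD, n = 12) and 6.56 ± 0.764 TPM (SD, n = 3), 2.39 times higher in whole kidney. The log2 difference was -1.05 ± 0.21 (SE, limma adjusted p = 0.000595) on the log2(TPM + 1) scale, which understates the change of low genes. It was -1.08 without library 3 of m3 (adjusted p = 0.000587) and -0.81 under median-of-ratios rescaling (adjusted p = 0.00262). Under quantile normalization it was -0.31 and not called (adjusted p = 0.142). Its relative Inpp5b, which encodes a phosphatase of the same kind, measured 62.9 ± 9.98 TPM in PTS2 (SD, n = 12) and 64.9 ± 13.6 TPM in whole kidney (SD, n = 3), with a log2 difference of -0.04 (limma adjusted p = 0.823).

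**Figure D2:**
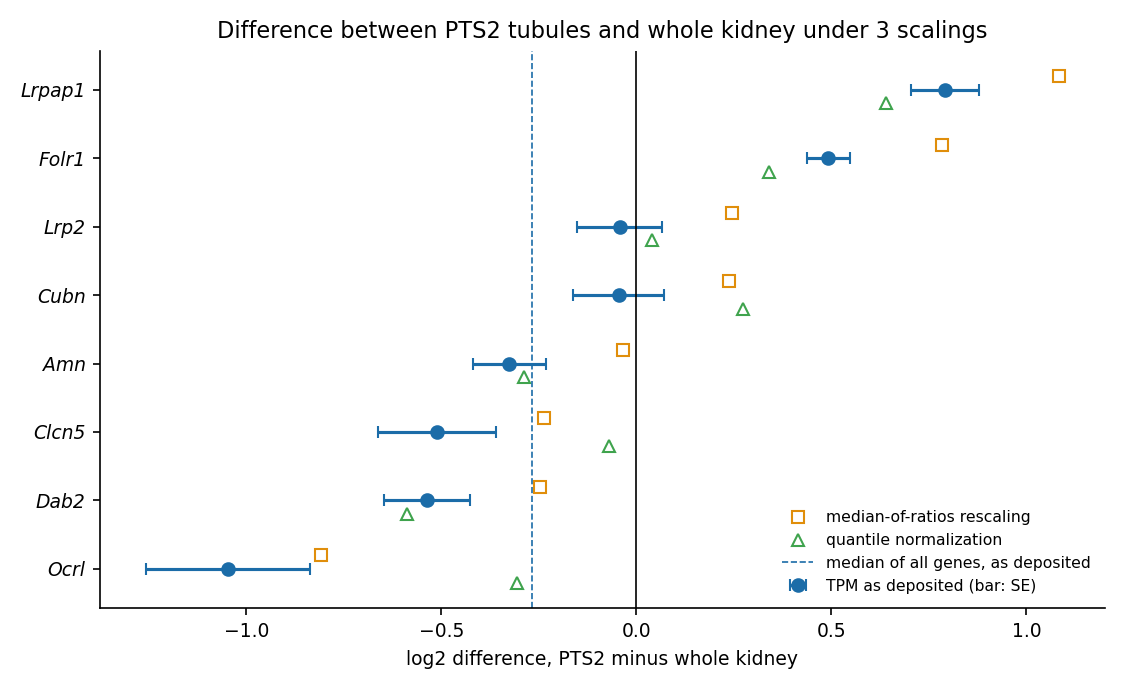
Log2 difference of PTS2 from whole kidney for the 8 genes, from TPM as deposited (circles, bars give the SE), after median-of-ratios rescaling (squares) and after quantile normalization (triangles); the dashed line is the median of all 12039 genes in the deposited TPM. Lrpap1 and Folr1 stay above 0 and Dab2, Amn, Clcn5 and Ocrl below 0 in every scaling, whereas Lrp2 and Cubn change sign.

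Transcript length moved with the difference over all genes. Genes with a longest transcript of 1000 to 2000 bases had a median log2 difference of -0.11 (2132 genes), and genes of 8000 bases and over had a median of -0.54 (569 genes). Lrp2, Cubn and Clcn5 were in the latter class. Lrp2 was above 88.6%, Cubn above 88.4% and Clcn5 above 54.5% of its genes. Amn and Folr1, both with transcripts of 1000 to 2000 bases, were above 32.6% and 90.7% of theirs. Lrpap1 was above 97.7% of genes of 2000 to 4000 bases, and Dab2 and Ocrl were above 37.8% and 13.3% of genes of 4000 to 8000 bases. The part of transcript length in the differences of the 8 genes was not tested.

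Ratios of genes whose products work together were taken within each library, where a common factor such as median-of-ratios rescaling leaves them unchanged and quantile normalization does not. Relative to megalin, PTS2 tubules held more chaperone and less adaptor transcript than whole kidney, and relative to cubilin they held less amnionless. In the deposited TPM Lrp2 and Cubn differed by only -0.04 and -0.05 on the log2 scale. These ratio differences therefore largely repeat the differences of Lrpap1, Dab2 and Amn in the same libraries. The Lrpap1/Lrp2 ratio was 6.76, 6.98 and 6.53 in whole kidney and from 8.32 to 14.8 in PTS2, with a median of 12.7. All 12 PTS2 libraries were above whole kidney, with a log2 difference of 0.84 (exact two-sided permutation test, p = 0.0022, adjusted p = 0.0044 over 4 ratios, the smallest p that 455 arrangements allow). The Dab2/Lrp2 ratio was 2.49, 2.91 and 3.02 in whole kidney and from 1.49 to 2.27 in PTS2, with a median of 2.03. Here all 12 PTS2 libraries were below whole kidney, with a log2 difference of -0.50 (exact permutation p = 0.0022, adjusted p = 0.0044).

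The Amn/Cubn ratio was 5.57, 5.75 and 5.24 in whole kidney and from 3.77 to 5.35 in PTS2, with a median of 4.77. In 11 of 12 PTS2 libraries it was below whole kidney, with a log2 difference of -0.28 (exact permutation p = 0.0176, adjusted p = 0.0234). Under quantile normalization, tried once the values were known, the Amn/Cubn difference was -0.56 (adjusted exact permutation p = 0.0044). Without whole kidney library 1 or 2 the adjusted p was 0.0879 and 0.103. The Lrp2/Cubn ratio of the receptors themselves was 3.79, 3.77 and 3.40 in whole kidney and from 3.09 to 4.84 in PTS2, with a median of 3.50. The kidney libraries lay within the PTS2 range, and the log2 difference was 0.00 (exact permutation p = 0.985, adjusted p = 0.985), which turned to -0.23 under quantile normalization (adjusted exact permutation p = 0.0945). Libraries of a set were treated as independent in these tests. With 1 mean per set the design is 3 against 3, which cannot give a p below 0.1, and the Lrpap1/Lrp2, Dab2/Lrp2 and Amn/Cubn differences then had an adjusted p of 0.133. Without library 3 of m3 these 3 log2 differences were 0.83, -0.49 and -0.29 (adjusted exact permutation p = 0.00549, 0.00549 and 0.0293).

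**Figure D3:**
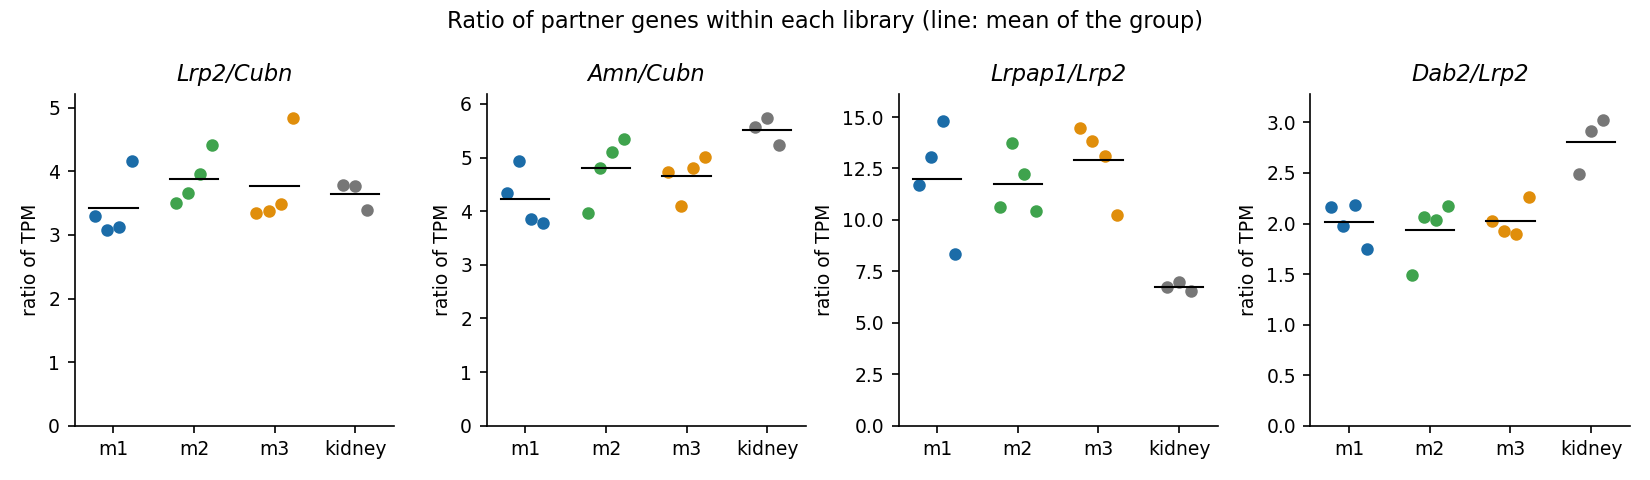
Ratio of TPM within each library for Lrp2/Cubn, Amn/Cubn, Lrpap1/Lrp2 and Dab2/Lrp2, by PTS2 set (4 libraries each) and whole kidney (3 libraries), with a line at each group's mean and axes that start at 0. Lrpap1/Lrp2 is above whole kidney and Dab2/Lrp2 below it in all 12 PTS2 libraries, while the Lrp2/Cubn ranges overlap.

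Among the PTS2 sets the levels of the 8 genes did not differ detectably. None of the 8 was called by a limma F test over m1, m2 and m3, and 0 of 8 had an unadjusted p under 0.05, where 3.02% of 11300 genes were called and 16.4% had an unadjusted p under 0.05. Adjusted p ran from 0.354 for Ocrl to 0.970 for Dab2. Lrp2 had set means of 99.5 ± 15.9, 102 ± 14.6 and 95.2 ± 11.0 TPM for the sets in order (SD, n = 4 each), so the spread within a set was larger than the gap between sets. Ocrl, with the lowest p, averaged 2.06 ± 0.839, 2.84 ± 0.439 and 3.34 ± 0.769 TPM, and the sets overlapped.

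By library number within a set, more of the 8 genes had small unadjusted p-values. With the set in the model, none of the 8 genes was called by number after adjustment (limma F test), a background of 2.71% of 11300 genes. Without adjustment 6 of 8 had a p under 0.05, against 21.1% of all genes. In the deposited TPM Lrpap1 had the smallest p (unadjusted 0.00798, adjusted p = 0.120 by limma). It averaged 1300.3 ± 41.0 TPM in the libraries numbered 1, 1239.8 ± 69.5 in those numbered 2, 1165.9 ± 68.6 in those numbered 3 and 1054 ± 76.3 in those numbered 4 (SD, n = 3 each). It was highest in number 1 in 3 of 3 sets. Cubn was likewise highest in number 1 in 3 of 3 sets, with means of 31.7, 27.2, 24.9 and 24.6 TPM by number (adjusted p = 0.188 by limma).

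Lrp2 took another course, with means of 108, 91.5, 87.4 and 109.8 TPM for numbers 1 to 4 (adjusted p = 0.178 by limma). It was lowest in number 3 in 3 of 3 sets. Clcn5 had means of 14.4, 10.6, 11.7 and 14.7 TPM and Dab2 of 200.7, 182, 178 and 225 TPM, and both had their lowest means in the libraries numbered 2 and 3. Folr1 was lowest in number 4 in 3 of 3 sets, at 866 ± 23.3 TPM (SD, n = 3) against 959.9 ± 6.48 TPM in number 1 (SD, n = 3). Marker sums differed by number as well. The S2 marker sum had a median of 370 TPM in number 1 and 1024 TPM in number 4, and the S3 marker sum 3633 and 2640.2 TPM. The macrophage marker Csf1r had medians of 56.0 and 25.3 TPM, whereas the other 4 macrophage markers summed to 5.13 and 8.66 TPM. Their part in the values of the 8 genes was not tested.

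**Figure D4:**
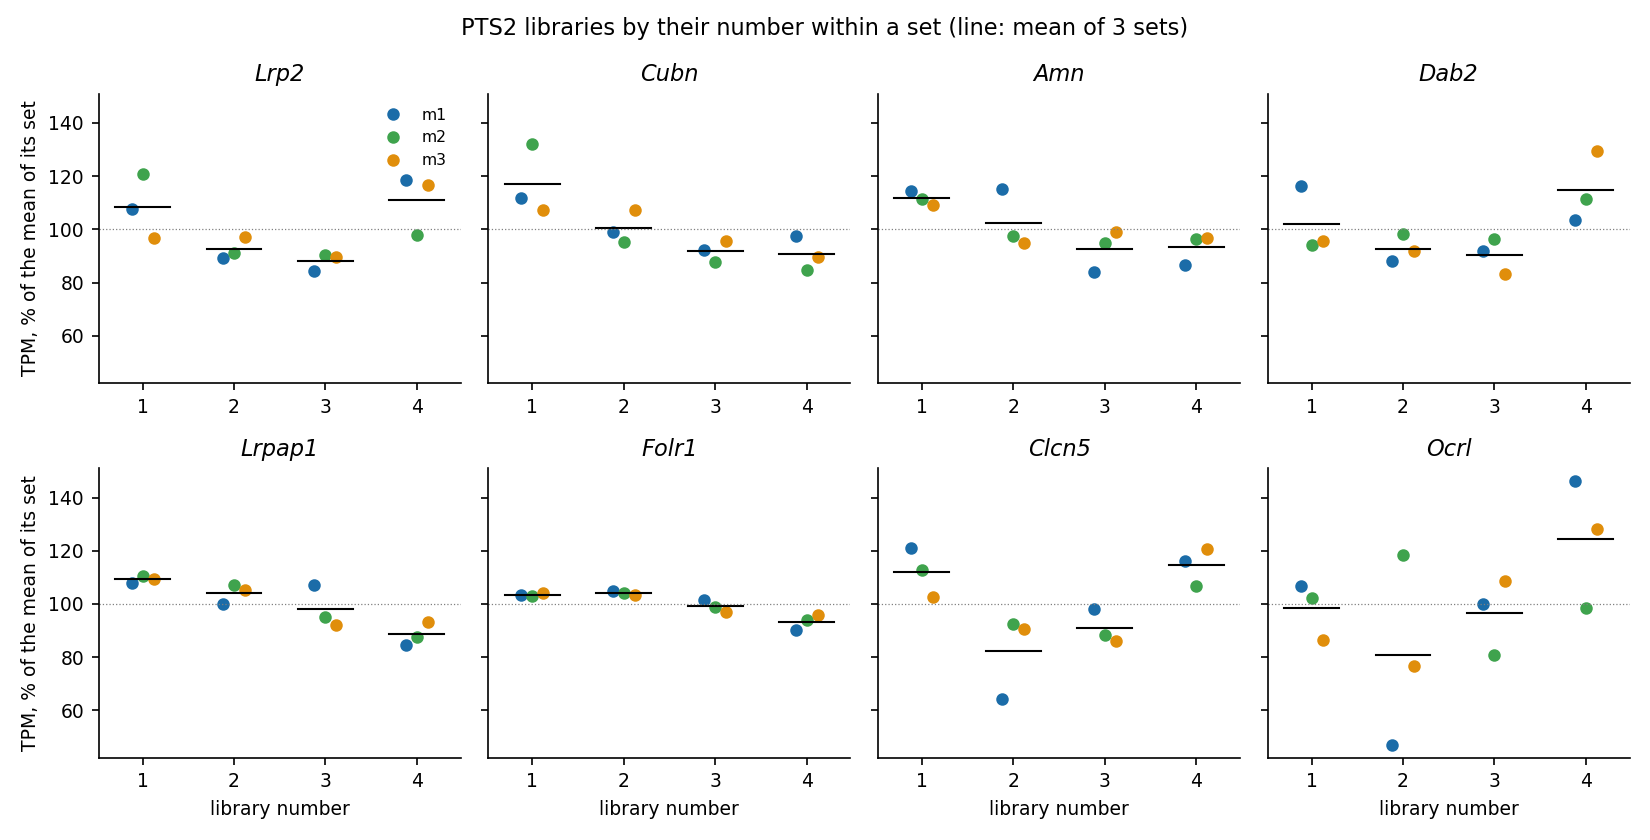
TPM of each of the 8 genes as a percent of the mean of its set, by library number within the set (points are the sets m1, m2 and m3, lines the mean of the 3, and the dotted line marks 100%). Cubn and Lrpap1 are highest in number 1 in all 3 sets, and Lrp2 is lowest in number 3 in all 3 sets, though no gene was called after adjustment.

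Across the 12 PTS2 libraries, 4 pairs were tested for correlation on the log2 scale, and none passed adjustment over the 4. Dab2 and Lrp2 had r = 0.584 (permutation p = 0.0442, adjusted p = 0.142) and a Spearman rho of 0.699 (permutation p = 0.0146, adjusted p = 0.0586). Without the 2 libraries farthest from the median of Lrp2, r was 0.943 over 10 libraries (permutation adjusted p = 0.00108), so this value rests on which libraries are taken. Amn and Cubn had r = 0.539 (permutation p = 0.0709, adjusted p = 0.142; rho = 0.448, permutation p = 0.148), and r = 0.0946 without the 2 libraries farthest from the median of Cubn. Lrp2 and Cubn had r = 0.429 (permutation p = 0.164, adjusted p = 0.219; rho = 0.189, permutation p = 0.560), which turned to -0.137 without 2 libraries. Lrpap1 and Lrp2 had r = -0.177 (permutation p = 0.582, adjusted p = 0.582; rho = -0.0559, permutation p = 0.869), and -0.167 without 2 libraries. With each value taken from its set mean, r was 0.589, 0.585, 0.455 and -0.163 for the 4 pairs in this order.

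Of 6445 genes at a mean of at least 10 TPM, those most like Lrp2 over the 12 PTS2 libraries were St8sia6 (r = 0.925), a sialyltransferase gene, Pias4 (r = 0.911), a SUMO ligase gene, and Anpep (r = 0.870), which encodes a brush border aminopeptidase. Ocrl, at a mean of 2.74 TPM, was not ranked. Among the others of the 8 genes, Clcn5 was the most like Lrp2 (r = 0.737, rank 82), followed by Dab2 at rank 577 and Cubn at rank 1532. Most like Cubn were Esr1 (r = 0.866), the estrogen receptor alpha gene, Plxnb2 (r = 0.849), a plexin gene, and Fasn (r = 0.828), the fatty acid synthase gene, with Amn at rank 226 (r = 0.539). These likenesses are descriptions over libraries that share sets.

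The wider endocytic machinery was followed in 52 further genes, of which 50 could be tested. In PTS2 3 were higher and 26 lower, where 9.68% of all genes were higher and 41.5% lower. The median log2 difference was -0.37 against -0.27 for all genes. Under median-of-ratios rescaling 11 were higher and 14 lower (23.5% and 23.7% of all genes), and under quantile normalization 7 and 16 (34.6% and 18.9% of all genes). These shares of all genes are the background for each list below. Adaptors and clathrin coat genes held 0 higher and 7 lower of 13 (2 and 3 under median-of-ratios rescaling, 0 and 5 under quantile normalization). Among those lower was Picalm, a clathrin assembly protein gene, at 16.3 ± 1.76 TPM over PTS2 (SD, n = 12) against 28.0 ± 2.05 TPM over whole kidney (SD, n = 3), with a log2 difference of -0.74 ± 0.10 (SE) and a limma adjusted p = 6.07e-06. It was called lower under all 3 scalings. The clathrin light chain gene Clta, with means of 149.7 TPM over PTS2 and 146 TPM over whole kidney, was not called (limma adjusted p = 0.706), and was chosen for mention after its values were seen.

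Endosomal sorting and recycling genes held 1 higher and 7 lower of 12 (3 and 2 under median-of-ratios rescaling, 2 and 3 under quantile normalization). The higher one was Rab38, a small GTPase gene known for lysosome-related organelles and linked in rats to tubular protein uptake. It measured 20.38, 21.95 and 15.29 TPM in whole kidney and 35.06 to 55.66 TPM in PTS2, without overlap. The log2 difference was 1.15 ± 0.14 (SE, limma adjusted p = 3e-06), above that of 99.2% of genes, and it was 1.43 and 1.54 under median-of-ratios rescaling and quantile normalization. Appl1, an adaptor of signalling endosomes, and Rab5b, an early endosome GTPase gene, had log2 differences of -0.74 and -0.65 (limma adjusted p = 0.000586 and 0.000481). Under quantile normalization neither was called, and Appl1 was at 0.00 (adjusted p = 0.998 and 0.256).

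Of 6 endosomal ion exchange and phosphoinositide genes, 0 were higher and 3 lower. Under median-of-ratios rescaling 0 were higher and 2 lower, and under quantile normalization 0 and 1. Slc9a3, the sodium/proton exchanger of the brush border and its endosomes, averaged 7.84 ± 3.65 TPM over PTS2 (SD, n = 12) against 27.4 ± 3.33 TPM over whole kidney (SD, n = 3). Its log2 difference, -1.78 ± 0.33 (SE), was called under all 3 scalings (limma adjusted p = 0.00029 as deposited). Thick ascending limb cells express Slc9a3 as well, and the part of that segment was not tested. Pikfyve, a phosphoinositide kinase gene, had a log2 difference of -0.83 (limma adjusted p = 4.93e-05), which was -0.18 under quantile normalization (adjusted p = 0.194).

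Other endocytic receptors and vitamin uptake genes held 2 higher and 5 lower of 13 tested. The counts turned to 5 and 3 under median-of-ratios rescaling and 4 and 3 under quantile normalization. Slc46a1, the proton-coupled folate transporter, measured 54.52, 52.32 and 51.23 TPM in whole kidney and 56.34 to 111.03 TPM in PTS2, with no overlap. Its log2 difference was 0.72 ± 0.16 (SE, limma adjusted p = 0.0012). The other folate genes of the list, chosen for mention after their values were seen, were not called as deposited. They were Slc19a1, the reduced folate carrier, at means of 113.6 and 114.1 TPM over PTS2 and whole kidney (limma adjusted p = 0.916), and Folr2, another folate receptor, at 0.989 and 1.05 TPM (limma adjusted p = 0.80). Under median-of-ratios rescaling Slc19a1 was called higher, and under quantile normalization Folr2 was. Fcgrt, the neonatal Fc receptor that recycles albumin and IgG, averaged 319 ± 11.9 TPM over PTS2 (SD, n = 12) against 278 ± 8.69 TPM over whole kidney (SD, n = 3), and differed by 0.19 ± 0.05 on the log2 scale (SE, limma adjusted p = 0.00385). Slc46a1 and Fcgrt were called higher under all 3 scalings. Lrp1, the relative of megalin in many other cell types, averaged 0.803 ± 0.574 TPM over PTS2 (SD, n = 12) against 6.02 ± 1.97 TPM over whole kidney (SD, n = 3), with a log2 difference of -1.99 (limma adjusted p = 1.29e-05). Scarb1, the HDL receptor gene, had a log2 difference of -1.85 (limma adjusted p = 4.22e-05).

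Of 7 genes for filtered or carried ligands, 6 were tested, with 0 higher and 4 lower. The counts were 1 and 4 under median-of-ratios rescaling and also under quantile normalization. Apoe averaged 23.2 ± 13.8 TPM over PTS2 (SD, n = 12) against 309 ± 31.8 TPM over whole kidney (SD, n = 3), and differed by -3.86 ± 0.37 on the log2 scale (SE, limma adjusted p = 1.9e-07). Gc, the vitamin D binding protein gene, was at 3.63 ± 2.42 and 32.3 ± 9.97 TPM, a difference of -3.00 (limma adjusted p = 5.99e-05). Transcripts of these ligands report local expression in the kidney and not the filtered protein.

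**Figure D5:**
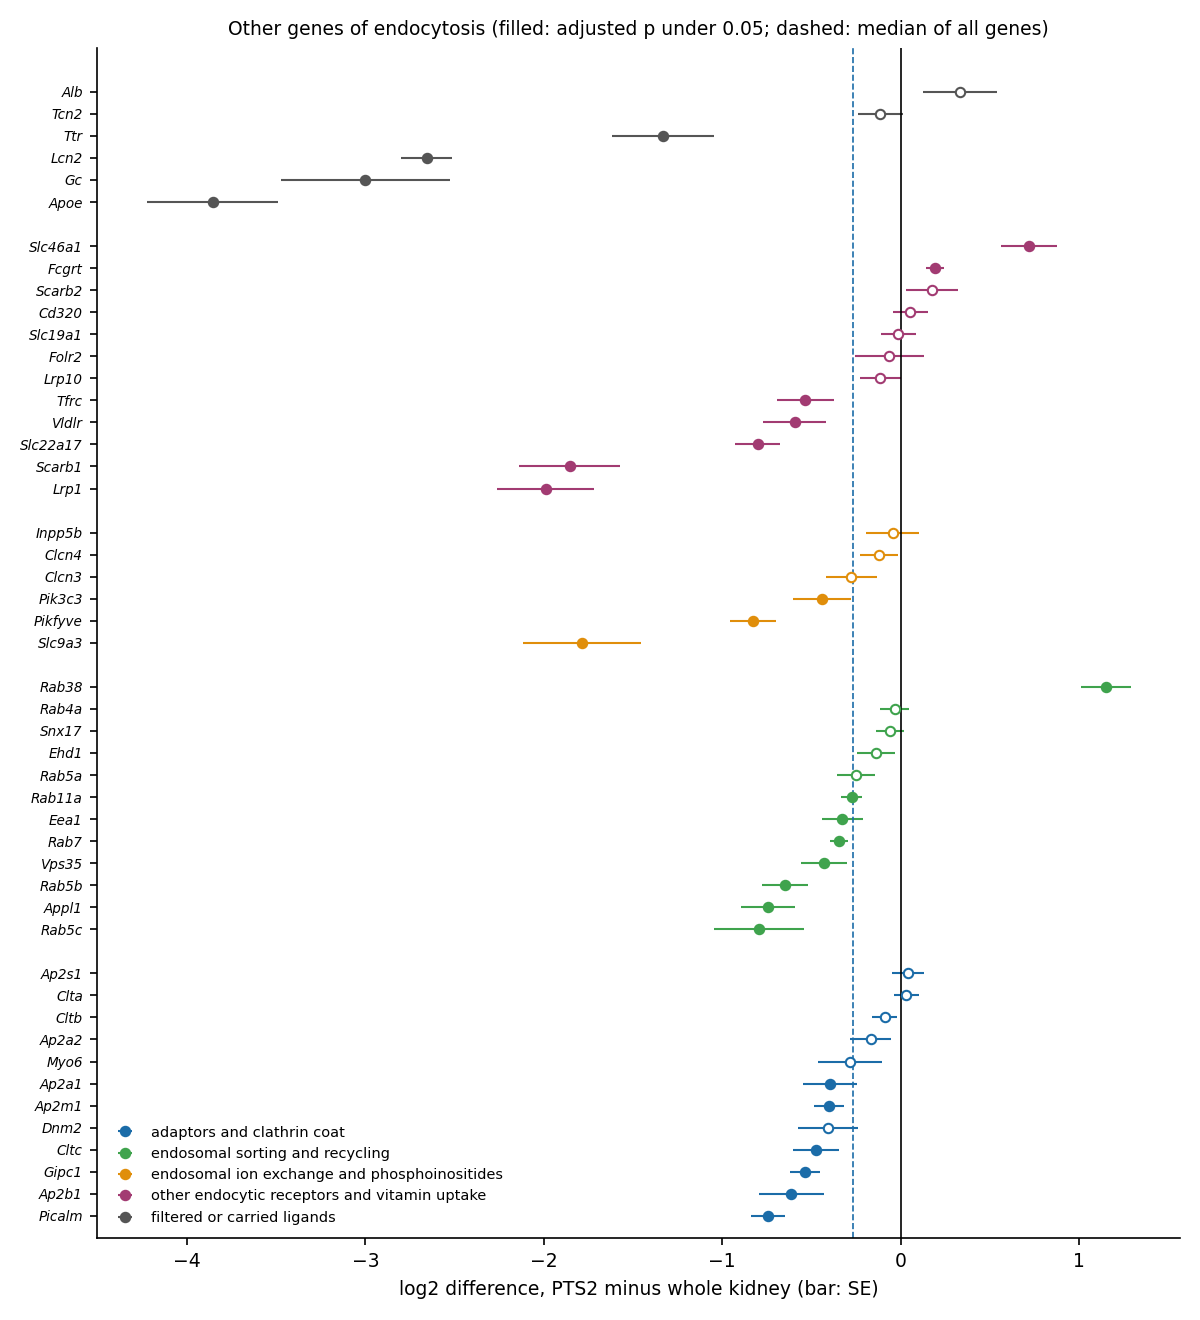
Log2 difference of PTS2 from whole kidney (bars give the SE) for 48 of the 50 tested genes of 5 endocytosis lists, coloured by list, filled where the limma adjusted p was under 0.05; the dashed line is the median of all genes. Only Rab38, Slc46a1 and Fcgrt are filled to the right of 0, and Apoe lies farthest to the left.

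By library number 3 of 47 of these genes that passed the filter in PTS2 were called, and 17 had an unadjusted p under 0.05, where 2.71% of all genes were called and 21.1% had an unadjusted p under 0.05. Among those called, Slc9a3 averaged 5.87, 4.20, 8.95 and 12.3 TPM for numbers 1 to 4 (limma adjusted p = 0.0170). Library 3 of m3, at 10.48 TPM the highest of those numbered 3, was kept in this test. Slc46a1 averaged 107, 96.5, 79.6 and 72.1 TPM (limma adjusted p = 0.0430). Among the sets 1 of 47 was called, Apoe (limma adjusted p = 0.0206), with 2 at an unadjusted p under 0.05, against 3.02% and 16.4% of all genes.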

How the data were processed

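The authors deposited 1 table of TPM per gene and library, which limits precision to the spread between libraries, since depth is unknown. Per the submitters' processing notes, STAR 2.5.1b, RSEM 1.2.31 and GRCm38.p5 were used. Per the labels' protocols, polyA RNA was amplified with a low-input cDNA kit in all libraries. The authors' own means and standard errors (4 deposited columns) entered no step; the latter are recorded as a signal column that the authors deposited in TPM, per the file headers. Of 47069 gene IDs, 46574 (98.9%) matched GENCODE M21 (GRCm38), the source of coordinates, lengths and sequences.

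Values were taken as log2(TPM + 1), and genes averaging 1 TPM or more in the fitted libraries entered lmFit and eBayes (with trend) of limma 3.58.1 under R 4.3.3, with Benjamini-Hochberg adjustment over all genes and a threshold of 0.05. PTS2 and whole kidney were compared with the set as a correlated block (correlation 0.0669). F tests compared sets, and numbers with the set as a term. Ratios and correlations were tested by permutation (all arrangements, or 100000 resamples) in Python 3.11.15 with scipy 1.17.1. The fits were tested on simulated data with independent noise in each library. That simulation held no correlation within sets or by number, so it does not cover such dependence. Figures used matplotlib 3.10.9.

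The 8 genes, 52 pathway genes and 44 markers were chosen with earlier results of these data known. Pathway genes were named by a rule: up to 2 per direction and list with the largest log2 difference, an adjusted p under 0.05 and no overlap between groups. The 3 genes most like Lrp2 and Cubn were named too. Some genes that met the rule are not reported here or drawn. Alternatives were quantile normalization, median-of-ratios rescaling, a pseudocount of 0.1, no filter or one at 10 TPM, removal of mitochondrial genes, a block by number, no correlation within sets, 1 mean per set, no set term, each library left out and, for ratios, quantile normalization, chosen after the data were seen.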

Additional observations from a re-analysis of the deposited data

Results flagged for a closer look

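Amn in library 1 of m2 was at 139.98 TPM, above the other 3 libraries of its set, the next of which was at 122.53 TPM. The gap was 0.855 of the range of the 4 libraries. The value was within the range of the other sets, as libraries 1 and 2 of m1 were at 141.26 and 141.86 TPM. Of 24 such groups of 4 examined (8 genes in 3 sets), this was the 1 that stood out, and chance picks out about 1 in 20.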

How the results depend on the processing

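For single genes, 483 of 493 alternative values kept their side of the threshold and, for PTS2 against whole kidney, their direction. Of the rest, 6 lost the call and 4 changed sign, all against whole kidney. The F tests among sets and by number give no direction, so only their side of the threshold was compared. The sign changes were Lrp2 at 0.25 and Cubn at 0.24 under median-of-ratios rescaling, and Lrp2 at 0.040 and Cubn at 0.27 under quantile normalization. The calls lost are given with each gene. In PTS2 against whole kidney 6 of 8 genes were called, and 5 to 6 with a library left out. Median-of-ratios rescaling called 4, Lrpap1, Folr1, Ocrl and, newly, Lrp2, and quantile normalization called 4, Lrpap1, Folr1, Amn and Dab2. Among sets and by number 0 of 8 were called under every alternative run. Ocrl could not be tested against whole kidney, among sets or by number with the filter raised to 10 TPM.

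With a library left out, the log2 ratio differences ran from -0.048 to 0.031 for Lrp2/Cubn, from -0.32 to -0.25 for Amn/Cubn, from 0.81 to 0.88 for Lrpap1/Lrp2 and from -0.58 to -0.44 for Dab2/Lrp2. With 1 mean per set, the Amn/Cubn, Lrpap1/Lrp2 and Dab2/Lrp2 differences of -0.28, 0.84 and -0.50 were no longer past the threshold, because 3 against 3 cannot reach it. Under quantile normalization, added after the data were seen, Lrp2/Cubn turned to -0.23, and the other 3 kept their direction and call. With a library left out, r ran from 0.110 to 0.609 for Lrp2 and Cubn, from 0.396 to 0.641 for Amn and Cubn, from -0.489 to 0.145 for Lrpap1 and Lrp2 (positive without library 4 of m1) and from 0.509 to 0.819 for Dab2 and Lrp2 (0.819 without library 1 of m2). Without the 2 libraries farthest from the median, r turned to -0.137 for Lrp2 and Cubn and rose to 0.943 for Dab2 and Lrp2, and the cause was not tested.

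Libraries of the same number in different sets had a mean correlation of deviations from the set mean of 0.143 (lowest 0.0254) over 12 pairs. The mean over 36 other pairs was -0.0481. Deviations within a set cancel out, so this value largely follows from that of the same numbers and is no separate comparison. Of the 12 libraries, 10 correlated best with their own number. As the labels state no shared source, the numbers were not taken as pairs. In a fit with a replicate block, 888 genes were called among sets instead of 341, with 0 of the 8 in both. Against whole kidney 6 of 8 were called, but that fit matched kidney libraries to PTS2 libraries of the same number. The labels state no such match, so no conclusion is drawn from that count.

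Over all genes, the calls against whole kidney were 6161, 9399 without a filter and 3113 with it raised to 10 TPM. The calls among sets fell to 196 without a filter and ran from 197 (without library 1 of m3) to 563 (without library 1 of m1). The calls by number were 306, and ran from 75 (without library 4 of m1) to 507 (without library 2 of m2), with 0 without a filter or without the set term.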
